A study of Mus musculus with 38 samples.

Results

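Of 19053 Med12 peaks listed in control Phase 1 cells, 5246 lay outside promoters, overlapped a Phase 1 RUNX1 peak and had no overlapping Med12 peak in cells edited at Cbfb. These 5246 regions are called lost sites. They were selected on measured values, namely by the presence of a peak in the sgCont Med12 list and in the Phase 1 RUNX1 list, by its absence from the sgCbfb Med12 list, and by a HOMER annotation other than promoter-TSS. An overlap of 1 bp counted. The other 5052 of the 10298 distal RUNX1-bound Med12 sites overlapped an sgCbfb peak and are called kept sites. Over all sgCont Med12 peaks, 32.2% had no sgCbfb peak, and among the distal RUNX1-bound sites 50.9% had none. Of 688 distal peaks without RUNX1 39.7% had none, of 7689 promoter peaks with RUNX1 6.52% and of 378 promoter peaks without RUNX1 31.2%. A lost site is a position with no listed peak, which is not a measurement of zero Med12.

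All samples came from Cas9-LP, a mouse lymphoid progenitor line derived from fetal liver progenitors of Ebf1-deficient mice with a Rosa26-Cas9 knock-in, so the controls also lacked the B-lineage factor Ebf1 and carried Cas9. LP cells were grown on OP9 stroma, and Phase 1 and Phase 2 cells were earlier and later stages on OP9-DLL4 stroma, which presents a Notch ligand. The sgCont, sgCbfb and sgMed12 groups were Phase 1 cells transduced with retroviral guide vectors bearing the hNGFR marker. The sgCbfb cells received a pool of guides against Cbfb and the sgMed12 cells a pool against Med12. The sgCont cells received control guides against luciferase, a gene mouse cells lack. The RUNX1, Med12, p300, CTCF and Notch1-IC lists named without a guide came from cells that carried none. Every group had 2 replicates that the authors merged into a list of reproducible peaks, so no spread between cultures could be computed, and the study describes the ChIP-seq of edited cells as made from few cells and noisier than usual. Tests and intervals below count sites, which are not replicates of a culture and can lie close together, and cover counting error only.

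RUNX1 is a DNA-binding protein that pairs with CBFβ, encoded by Cbfb, which raises its affinity for DNA and its stability. Mediator is a large coactivator complex that links factors bound at enhancers to RNA polymerase II at promoters, and Med12 belongs to its kinase module. Notch signaling releases the intracellular domain of Notch1 (Notch1-IC), which joins the DNA-binding protein RBPJ at target genes and starts the T-lineage program, in which RUNX proteins, TCF1 (Tcf7) and GATA3 take part.

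As examples, 200 bases around the Med12 peak centre are printed for lost sites near the Runx3, Runx1, Gfi1, Tcf7 and Il2ra genes and in the T cell receptor gamma locus (Tcrg). The highest-scored kept site outside ribosomal repeats, near Zfp395, is printed too. A lost site in the T cell receptor delta locus (Tcrd), a lost site near Gata3 and a kept site in the T cell receptor beta locus (Tcrb) were added after their values were seen, because each held 2 RUNX strings. The other lost sites were taken from the sites named below, ribosomal repeats left out, those with most RUNX strings first. The string is therefore more frequent in the printed lost sites than in all lost sites, of which 38.0% held it. The highest-scored lost Gata3 site, at 92.1, held no RUNX string and is not printed. Nor is the lost site near 4933406K04Rik, at 97.4, which held 1 RUNX string and ranked before the Tcf7 and Il2ra sites. Capitals mark the RUNX string, TGTGGTT or TGCGGTT, on either strand (AACCACA or AACCGCA where it lies on the reverse strand). All are forward strand of mm10, read from the RefSeq GRCm38.p6 genome.
lost, Runx3, chr4:135098567-135098766: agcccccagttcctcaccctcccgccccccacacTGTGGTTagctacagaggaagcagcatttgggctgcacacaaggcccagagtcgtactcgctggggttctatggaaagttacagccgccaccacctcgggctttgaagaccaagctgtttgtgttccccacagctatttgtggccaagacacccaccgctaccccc
lost, Runx1, chr16:92822054-92822253: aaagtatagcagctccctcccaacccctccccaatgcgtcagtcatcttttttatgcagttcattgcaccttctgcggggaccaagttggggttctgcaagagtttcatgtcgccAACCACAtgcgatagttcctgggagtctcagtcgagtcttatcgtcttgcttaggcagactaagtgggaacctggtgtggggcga
lost, Gfi1, chr5:107759252-107759451: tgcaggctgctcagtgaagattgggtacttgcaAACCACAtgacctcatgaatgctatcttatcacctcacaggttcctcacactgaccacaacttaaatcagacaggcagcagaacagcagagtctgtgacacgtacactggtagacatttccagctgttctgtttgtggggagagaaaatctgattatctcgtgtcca
lost, Tcrg, chr13:19356246-19356445: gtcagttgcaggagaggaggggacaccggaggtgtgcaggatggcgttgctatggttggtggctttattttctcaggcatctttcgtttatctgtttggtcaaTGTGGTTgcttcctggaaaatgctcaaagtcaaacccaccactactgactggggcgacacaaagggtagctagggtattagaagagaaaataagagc
lost, Tcrd, chr14:54138343-54138542: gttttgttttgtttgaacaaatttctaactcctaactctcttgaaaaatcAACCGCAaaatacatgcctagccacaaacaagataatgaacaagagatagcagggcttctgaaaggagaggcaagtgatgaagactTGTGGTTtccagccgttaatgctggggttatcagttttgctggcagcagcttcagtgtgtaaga
lost, Gata3, chr2:9558669-9558868: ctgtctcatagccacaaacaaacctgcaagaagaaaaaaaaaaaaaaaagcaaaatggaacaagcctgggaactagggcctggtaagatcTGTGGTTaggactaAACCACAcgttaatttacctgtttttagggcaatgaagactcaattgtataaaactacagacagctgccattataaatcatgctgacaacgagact
lost, Tcf7, chr11:52318489-52318688: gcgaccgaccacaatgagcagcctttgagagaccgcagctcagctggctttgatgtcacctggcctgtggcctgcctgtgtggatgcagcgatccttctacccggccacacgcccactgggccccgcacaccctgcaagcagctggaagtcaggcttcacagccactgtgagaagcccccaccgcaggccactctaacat
lost, Il2ra, chr2:11623207-11623406: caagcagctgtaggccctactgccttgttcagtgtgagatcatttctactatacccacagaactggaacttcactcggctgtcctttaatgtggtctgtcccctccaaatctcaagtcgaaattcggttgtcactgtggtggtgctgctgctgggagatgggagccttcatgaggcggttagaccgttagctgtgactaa
kept, Tcrb, chr6:41554459-41554658: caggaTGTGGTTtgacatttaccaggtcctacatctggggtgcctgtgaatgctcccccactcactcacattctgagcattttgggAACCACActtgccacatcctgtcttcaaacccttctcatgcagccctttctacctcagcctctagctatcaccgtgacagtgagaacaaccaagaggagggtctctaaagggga
kept, Zfp395, chr14:65343802-65344001: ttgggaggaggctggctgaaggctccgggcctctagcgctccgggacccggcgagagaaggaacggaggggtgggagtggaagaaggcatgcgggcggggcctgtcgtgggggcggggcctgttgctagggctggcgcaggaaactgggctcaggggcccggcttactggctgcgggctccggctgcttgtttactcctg

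Lost sites held the RUNX string more often than kept sites. It was present in the 200 bp around the peak centre in 1991 of 5246 lost sites, or 38.0% (95% Wilson interval 36.6% to 39.3%). In 5048 kept sites on named chromosomes it was present in 18.7% (17.6% to 19.8%). The odds ratio was 2.67 (two-sided Fisher's exact test, p = 7.62e-106, adjusted over 20 tests by Benjamini-Hochberg 5.08e-105), and it stayed between 2.0 and 2.86 over 12 alternative settings. In windows of the same length 2 kb to each side the string was as frequent beside lost sites (5.70%) as beside kept sites (5.75%). Over all 19045 sgCont Med12 peaks on named chromosomes, promoters included, 17.6% held it, and of 29144 Phase 1 RUNX1 peaks outside promoters 31.5% did.

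The number of RUNX strings and their spelling also differed. Of the lost sites 32.5% held 1 string and 5.49% held 2 or more, against 16.8% and 1.84% of the kept sites. Read the other way, 44.2% of 7361 sites with no RUNX string were lost, 66.7% of 2552 sites with 1, 75.5% of 343 with 2, and 76.3% of 38 with 3 or more. The difference lay in TGTGGTT, which 35.9% of lost and 15.4% of kept sites held. TGCGGTT was found in 2.59% of lost and 3.61% of kept sites. The strings were centred on the Med12 peak in both classes. In the 20 bp just before the centre there were 6.35 strings per 100 lost sites and 2.60 per 100 kept sites.

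**Figure D1:**
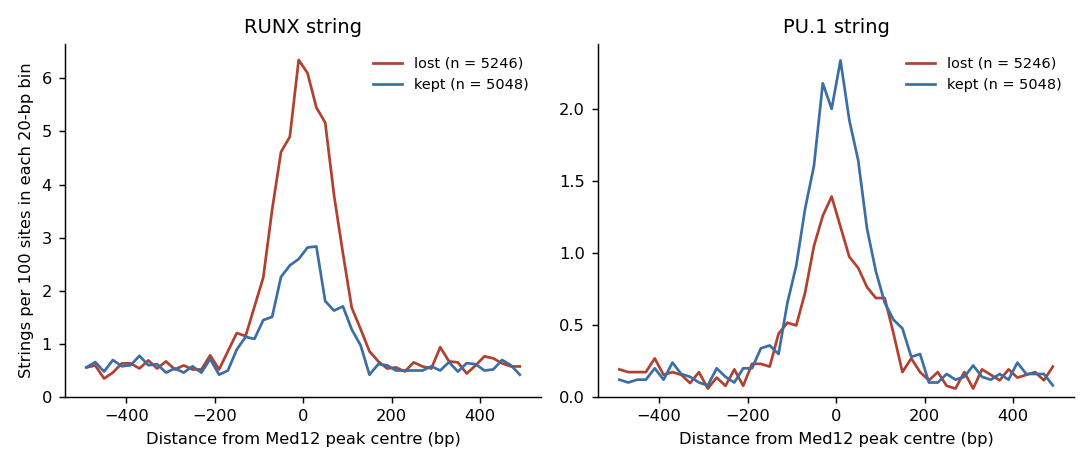
Occurrence of the RUNX string (left) and of the PU.1 string (right) around Med12 peak centres. The horizontal axis is the distance from the peak centre in bp, the vertical axis the number of strings per 100 sites in each 20-bp bin, for 5246 lost and 5048 kept sites. RUNX strings peak higher at lost sites and PU.1 strings peak higher at kept sites, and both fall to the same level away from the centre.

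Strings of other factors of early T cells moved in both directions. The string of GATA factors, AGATAA, was found in 13.0% of lost and 8.38% of kept sites (odds ratio 1.64, adjusted exact p = 5.15e-14), and the TCF1 string (CTTTGAA or CTTTGAT) in 8.71% and 5.43% (1.66, adjusted exact p = 1.37e-10). The flanks held GATA in 10.6% and 9.98% and TCF1 in 7.14% and 7.32%, so lost sites were above and kept sites below their own flanks. The E-box CAGCTG, bound by E proteins, was found in 25.2% of lost and 21.2% of kept sites (1.25, adjusted exact p = 2.61e-06), and 9.87% and 9.95% of the flanks held it. RBPJ (GTGGGAA) was found in 6.08% and 4.56% (1.36, adjusted exact p = 0.000765, not passed in a 100 bp window at 1.27), beside 4.12% and 4.21% of the flanks. The string of PU.1 (GAGGAAGT), a myeloid and progenitor factor encoded by Spi1, went the other way, with 8.90% of lost and 14.3% of kept sites (0.587, adjusted exact p = 3.97e-17) and 1.20% and 1.40% of the flanks. AP-1 (TGACTCA or TGAGTCA) was also less frequent at lost sites, 7.55% against 9.51% (0.777, adjusted exact p = 0.000541, flanks 3.68% and 3.70%), but not among sites scoring at least 30 in sgCont (0.933). Over all sgCont Med12 peaks these strings were found in 7.10% (GATA), 5.26% (TCF1), 17.6% (E-box), 4.67% (RBPJ), 7.87% (PU.1) and 5.63% (AP-1). No string contains another, and a match is not a bound site.

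RUNX and PU.1 strings were combined. Of 2680 sites with a RUNX string and no PU.1 string, 69.4% were lost, and of 253 sites with both 51.4% were. Of 6427 sites with neither 45.4% were lost, and of 934 sites with PU.1 alone 36.1%. A GATA or TCF1 string beside a RUNX string was found at 585 sites, 74.0% of which were lost. These shares describe the same sites as the tests above and carry no further test.

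To ask whether the lost sites were already occupied before Notch stimulation, they were compared with the LP lists, which no part of the selection used. A Med12 peak was listed in LP at 4150 of 5246 lost sites, or 79.1% (78.0% to 80.2%), and at 96.6% (96.1% to 97.1%) of kept sites (odds ratio 0.133, adjusted exact p = 7.77e-176). LP RUNX1 was present at 84.1% and 96.6% (0.184, adjusted exact p = 2.15e-109), and LP p300, an acetyltransferase found at active enhancers, at 85.4% and 96.8% (0.195, adjusted exact p = 1.05e-96). The 3 odds ratios stayed between 0.113 and 0.243 in 11 alternatives each. Most lost sites were thus listed in LP cells too, and 4029 of them had LP peaks of all 3 proteins. At the other end, 645 sites had none of the 3, and 592 of these, or 91.8%, were lost, against 46.0% of 8758 sites with all 3. Sites with LP RUNX1 but no LP Med12 were lost in 347 of 434 cases (80.0%), and sites with LP Med12 but no LP RUNX1 in 86 of 171 (50.3%).

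The RUNX string and the LP state were then combined. Among lost sites the string was held by 35.1% of the 1096 without and 38.7% of the 4150 with LP Med12, and among kept sites by 14.0% of 171 and 18.8% of 4877. With both a RUNX string and no LP Med12, 385 of 409 sites (94.1%, interval 91.4% to 96.0%) were lost, and with neither feature, that is no string and an LP Med12 peak, 39.1% of 6503 were. The GATA string was held by 22.8% of the lost sites without and 10.5% of the lost sites with LP Med12, and the TCF1 string by 13.3% and 7.49%. Where Med12 was listed in both stages, the log2 ratio of the Phase 1 to the LP score had a median of 0.42 over 4090 lost sites and -0.09 over 4764 kept sites. For RUNX1 the medians were 0.46 and 0.07, and for p300 0.28 and -0.08. The scale of the scores across lists is not stated, but a constant factor between 2 lists would move both classes alike.

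**Figure D2:**
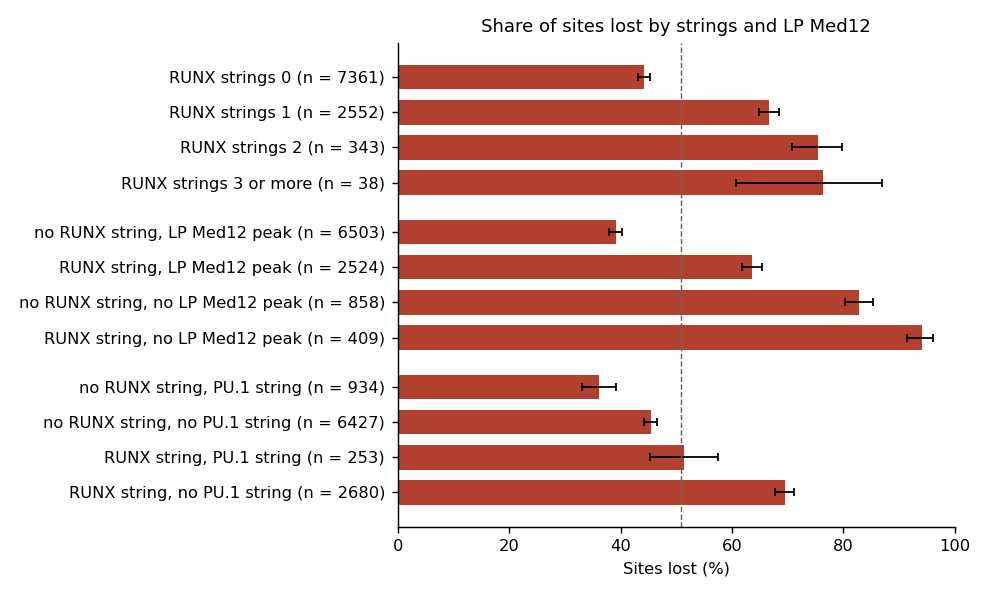
Share of distal RUNX1-bound Med12 sites that were lost, by the number of RUNX strings (top), by RUNX string and LP Med12 peak (middle) and by RUNX and PU.1 string (bottom). Bars give percent lost, whiskers 95% Wilson intervals, and the dashed line the 50.9% of all such sites. The share rises from 39.1% for sites with an LP Med12 peak and no RUNX string to 94.1% for sites with a RUNX string and no LP Med12 peak.

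In Phase 1 cells without a guide, Med12 and p300 were listed at nearly all sites of both classes. Med12 was found at 97.7% of lost and 97.2% of kept sites (odds ratio 1.19, interval 0.929 to 1.52, adjusted exact p = 0.188) and p300 at 96.6% and 95.9% (1.21, interval 0.987 to 1.48, adjusted exact p = 0.0724), neither past the threshold of 0.05. The direction depended on the setting. Matched on the sgCont Med12 score both passed with lost sites higher. The Mantel-Haenszel odds ratios were 1.53 (adjusted Mantel-Haenszel chi-square p = 0.000819) for Med12 and 1.40 (adjusted p = 0.00187 by the same test) for p300. Matched jointly on that score and the Phase 1 RUNX1 score, both were on the other side of 1 without passing (0.811 and 0.872). Over all alternatives, Med12 passed with lost sites higher in 2 and p300 in 4, and neither passed with lost sites lower. CTCF, which marks insulators and loop anchors, was listed at 12.3% of lost and 26.3% of kept sites (0.392, adjusted exact p = 2.91e-73), and the CTCF consensus was found in 0.40% and 1.88% (0.210, adjusted exact p = 6.35e-13), beside 0.181% and 0.129% of the flanks and 1.15% of all sgCont Med12 peaks. Among sites scoring at least 30 in sgCont the odds ratio of the CTCF consensus was 0.113. Notch1-IC of Phase 1 or Phase 2 was listed at 139 lost and 100 kept sites, or 2.65% and 1.98% (1.35, adjusted exact p = 0.0288), which did not pass in 3 of 11 alternatives (1.26 to 1.28). Its odds ratio was 3.04 when sites were matched on their sgCont Med12 score, 2.72 when matched jointly with the RUNX1 score and 2.08 among sites scoring at least 30 in sgCont. By stage, 41 lost and 48 kept sites had a Phase 1 Notch1-IC peak (46.1% lost, interval 36.1% to 56.4%). A Phase 2 peak was found at 133 lost and 80 kept sites (62.4% lost, interval 55.8% to 68.7%). Over all distal RUNX1-bound sites 50.9% were lost, so only the Phase 2 peaks had a lost share above that base. LP Notch1-IC was listed at 8.85% of lost and 14.4% of kept sites (0.575, adjusted exact p = 2.03e-18), but the odds ratio was 1.08 when sites were matched on their sgCont Med12 score. The LP list came from cells grown without the Notch ligand, yet held 1585 peaks, beside 152 in Phase 1 and 352 in Phase 2. It is therefore not a like readout, and what its peaks stand for was not tested.

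The RUNX1 lists from cells with guides held only 1550 peaks for sgCont and 2094 for sgMed12, and so covered few sites. The sgCont RUNX1 list overlapped 14.1% of lost and 11.6% of kept sites (1.25, adjusted exact p = 0.000205), and this did not pass for sites more than 2500 bp from a start (1.09). Matched on the sgCont Med12 score the odds ratio was 4.03, matched jointly with the RUNX1 score 2.75, and among sites scoring at least 30 in sgCont 2.41. The sgMed12 RUNX1 list overlapped 14.5% and 17.0% (0.832, adjusted exact p = 0.000841). Matched on the sgCont Med12 score, this odds ratio turned to 2.25, so no direction is given for it. In all, 18 of the 20 tests passed, 9 with a higher and 9 with a lower share at lost sites.

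**Figure D3:**
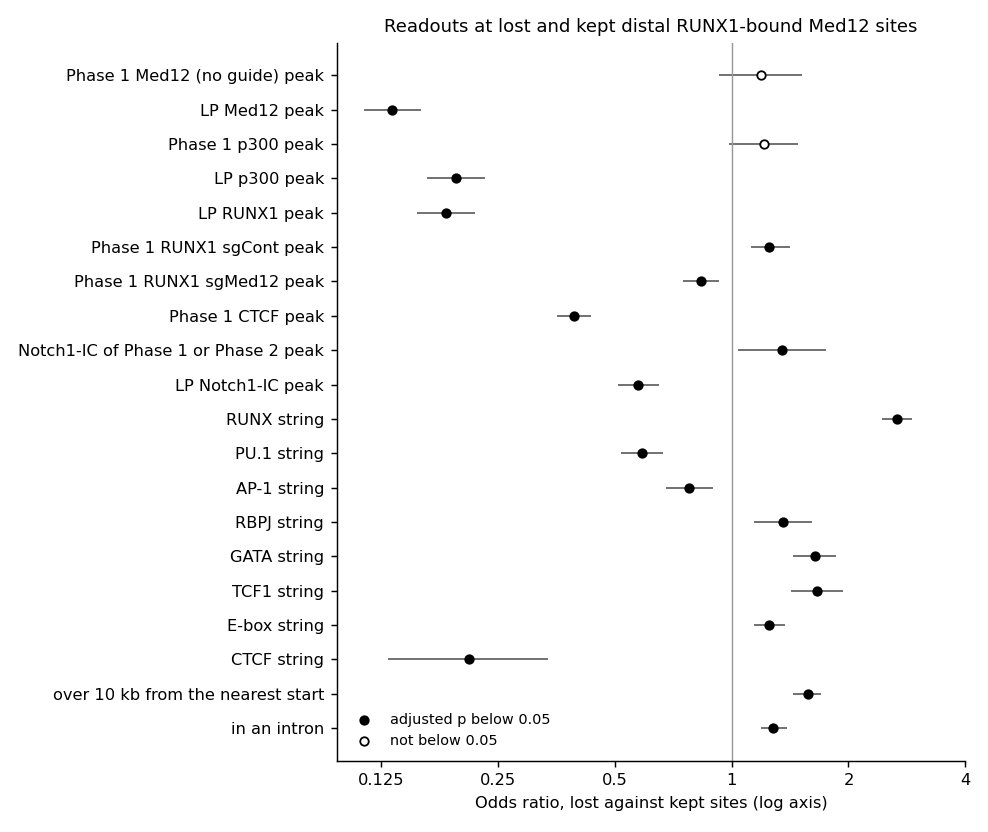
Odds ratios of 20 readouts at lost against kept sites, on a log axis. Points are sample odds ratios, whiskers 95% intervals from counts of sites, and open points did not pass an adjusted p of 0.05. LP Med12, LP RUNX1 and LP p300 peaks and the CTCF string lie farthest to the left, and the RUNX string (2.67) lies farthest to the right.

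Peak scores of the lists that chose the sites are given as a description. The sgCont Med12 score had a median of 23.6 (quartiles 18.5 and 32.9) at lost and 32.9 (22.9 and 50.9) at kept sites, so the classes overlapped widely but lost sites were weaker. In 5 equal classes of that score, 68.9% of the lowest and 25.7% of the highest class were lost. With lost and kept sites compared inside these classes, the RUNX string had an odds ratio of 2.86 and an LP Med12 peak one of 0.17. The Phase 1 RUNX1 score had medians of 81.6 (55.3 and 120.5) and 80.5 (49.1 and 137.1), and the lost share was highest in its middle class (57.8%) and lower at both ends (43.5% and 43.9%). Inside classes of the sgCont Med12 score the lost share mostly rose with the RUNX1 score, which again only describes values the rule used. In the middle Med12 class it went from 17.2% in the lowest to 79.1% in the highest RUNX1 class. In the highest Med12 class it was 12.5% of 8 sites, 10.9% of 46, 8.25% of 194, 18.6% of 440 and 31.0% of 1371, from RUNX1 class 1 to 5. From RUNX1 class 4 to 5 it fell in Med12 class 1 (92.2% of 103 to 87.5% of 8). It also fell there in Med12 class 2 (85.1% of 248 to 80.8% of 26). The score of Med12 in cells without a guide, which the rule did not use, had medians of 71.6 and 79.4, and the lost share ran from 57.9% in class 2 to 40.5% in the highest class. Of the lost sites 26 had an sgCbfb peak within 100 bp but no overlap, 107 had one between 100 and 500 bp away and 2310 had none within 20 kb. Their counterparts just inside the kept class were 7 sites of which at most 10% was covered by the sgCbfb peak, and 4949 of 5052 were covered over more than 50%. The median sgCont scores of these near misses on either side were 40.2 and 43.3. The lowest score in any list was 15, and 414 lost and 149 kept sites scored under 16.

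**Figure D4:**
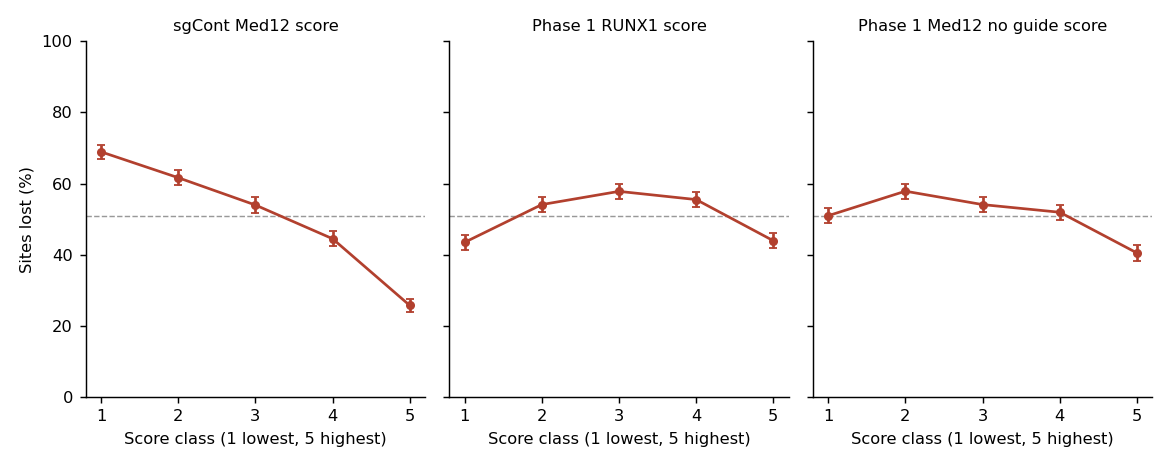
Share of sites lost in 5 equal classes of the sgCont Med12 score, the Phase 1 RUNX1 score and the Phase 1 Med12 score without a guide. Points are percent lost, whiskers 95% Wilson intervals and the dashed line 50.9%. The share falls steadily with the sgCont Med12 score and has its highest value in a middle class of the other two.

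The difference between the lists was also read from the other side. Over all 18099 sgCbfb Med12 peaks, 5184 (28.6%) had no sgCont peak, beside the 32.2% of all 19053 sgCont peaks without an sgCbfb peak. Of 6673 distal RUNX1-bound peaks in the sgCbfb list, 1666 (24.97%, interval 23.9% to 26.0%) had no sgCont peak, compared with 50.9% lost in the direction above. These sgCbfb peaks had a median score of 21.4, held the RUNX string in 9.06% and the PU.1 string in 18.5%, and overlapped an LP Med12 peak in 82.7% and a Phase 1 Med12 peak without a guide in 85.0%. The RUNX string was thus found in 38.0% of sites listed in sgCont alone, 18.7% of sites listed in both and 9.06% of sites listed in sgCbfb alone, and the PU.1 string in 8.90%, 14.3% and 18.5%.

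Lost sites lay farther from transcription starts than kept sites. The median distance to the nearest transcription start was 20.6 kb (quartiles 7.98 and 50.0 kb) against 14.7 kb (4.82 and 36.0 kb) for kept sites. More than 10 kb away were 69.9% of lost and 59.7% of kept sites (odds ratio 1.57, adjusted exact p = 9.47e-27), and 50.4% and 44.2% were in an intron (1.28, adjusted exact p = 5.71e-10). Intergenic shares were 43.5% and 43.8%. CpG islands held 1.58% of lost and 8.27% of kept sites, 5′ UTRs 0.572% and 3.80%, and LTR repeats 9.51% and 6.67%. The GC content of the 200 bp had a median of 51.0% and 53.0%. RUNX1 and Med12 peak centres were a median of 25 bp apart in both classes. Promoter Med12 was listed about as often whatever the distal sites did. Where the nearest gene also had a promoter Med12 peak, that peak was in the sgCbfb list for 88.5% of 846 genes with lost sites only, 88.2% of 625 with both and 89.8% of 880 with kept sites only.

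Tcf7 and Gata3, genes of the T-lineage program, had lost sites that were new in Phase 1 as well as ones already listed in LP. At Tcf7, which encodes TCF1, all 4 sites were lost, with sgCont scores of 30.2, 36.9, 96.0 and 99.9. The sites scoring 36.9 and 96.0, 22.4 and 31.4 kb before the start, had no LP peak of Med12, RUNX1 or p300, while the other 2 had all of these. The site at 96.0 held 2 GATA strings, a TCF1 string and an RBPJ string but no RUNX string. Near Gata3, whose product is required for T cell development, 4 sites 271 to 320 kb after the start were lost (scores 21.4, 25.2, 30.3 and 92.1). The 3 kept sites lay 1.08 kb before the start (48.8) and 75.9 and 76.9 kb after it (28.4 and 64.6). The kept Gata3 sites all had LP Med12, and of the lost ones only the site at 92.1 did. The site at 25.2 held 2 RUNX strings and is printed above. Both genes were named because they had a lost site. Over the whole list of T-lineage transcription factors 49 of 83 sites were lost (59.0%, interval 48.3% to 69.0%), beside 50.9% of all distal RUNX1-bound sites.

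Il2ra, which encodes CD25, a surface marker gained as T-lineage progenitors advance, had 4 lost sites with scores of 15.9, 16.9, 33.1 and 57.4, and 1 kept site with 39.5. The highest, 19.5 kb before the start at chr2:11623180-11623434, had no LP peak of Med12, RUNX1 or p300, and overlapped Notch1-IC peaks with scores of 24.4 in Phase 1 and 86.1 in Phase 2. Sites in introns of Dtx1, a Notch target that modulates the pathway (score 53.1, 25.8 kb after the start), and of Notch1 itself (51.9, 1.41 kb after the start) had the same pattern, with Notch1-IC scores of 56.1 and 44.1 at Dtx1 and 20.5 and 26.2 at Notch1 and no LP peak of the 3 proteins. Both held an RBPJ string. Ptcra, the pre-T cell receptor alpha chain, had a lost site 4.36 kb before the start (39.9) that was listed in LP with Med12 at 137.8 and had a Phase 2 Notch1-IC score of 27.9. Hes1, a classical Notch target, had 2 lost sites of 29.7 and 26.9 more than 80 kb after the start and 2 kept ones of 58.1 and 20.4, the former 1.05 kb before the start with Notch1-IC at 22.9 and 27.8. These genes were named because they had a lost site. In the same list no site was lost at Notch2 (2 sites), Notch3 (2), Lgmn (3) or Nrarp (1). Over the whole list of Notch receptors and targets 14 of 28 sites were lost (50.0%), beside 50.9% of all distal RUNX1-bound sites.

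The RUNX genes had many sites of both kinds. Over the list of RUNX family and cofactor genes 24 of 47 sites were lost (51.1%), beside 50.9% of all distal RUNX1-bound sites. Near Runx1, 8 of 15 sites were lost, with scores from 16.9 to 77.1, and 7 were kept, with 15.3 to 92.7, so the ranges overlapped. The kept Runx1 sites all had LP Med12, and 4 of the 8 lost ones did. The highest lost site, chr16:92822027-92822281, lay 3.92 kb after a start, in intron 2 of NM_001111021, and had LP RUNX1 (115.7) but no LP Med12 or p300 peak. Near Runx3, 6 of 14 sites were lost (16.2 to 78.2) and 8 kept (25.3 to 106.3). The lost Runx3 site at 78.2, 22 kb before the start, held a RUNX and a TCF1 string. Bach2, a repressor that restrains effector differentiation, had 6 lost sites (15.1 to 33.9) and 2 kept ones (16.2 and 27.0), all 8 with LP Med12. Gfi1, a repressor needed in early T cells, had a lost site of 63.1 in an intron of NM_007964, 33.5 kb before its start, with a RUNX and a GATA string.

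The antigen receptor loci were looked at after the genes with most lost sites were seen. In the RefSeq span of Tcrg (chr13:19178042-19356476) 8 of 9 sites were lost, beside 50.9% of all distal RUNX1-bound sites. The highest, at the 3′ end of the locus, scored 102.3 in sgCont, 460.9 for Phase 1 Med12, 586.1 for Phase 1 RUNX1 and 975.8 for Phase 1 p300. It and the lost Tcrg sites at 36.7 and 24.0 each held a RUNX and a GATA string and overlapped Notch1-IC peaks of LP, Phase 1 and Phase 2. The kept Tcrg site scored 16.6 and held a PU.1 and a GATA string and no RUNX string. In the span of Tcra, which contains Tcrd, 18 of 22 sites were lost, among them all 3 within Tcrd (42.3, 32.7 and 22). The Tcrd site at 22 held 2 RUNX strings and a GATA string and had no LP peak of Med12, RUNX1 or p300. Beyond the end of Tcra, 2 sites assigned to Dad1 were kept, with scores of 191.9 and 53.8. In Tcrb 8 of 12 sites were lost (15.4 to 61.0). The kept Tcrb site printed above scored 155.2 in sgCont and 45.1 in sgCbfb, held 2 RUNX strings and overlapped Notch1-IC in Phase 1 (19.2) and Phase 2 (65.0). In Igh, the immunoglobulin heavy chain locus, 20 of 25 sites were lost, and 15 of the 20 and 4 of the 5 kept ones held a RUNX string. Most lay among the variable segments, which are near copies of each other. The reads were aligned with settings that allowed several matches, so peaks in such copies are uncertain. The same limit holds for T cell receptor sites that lie among variable segments. Igk, a light chain locus, had 1 lost and 1 kept site, and Igl had 0 sites.

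Gene groups were read by nearest gene, beside the 50.9% of all distal RUNX1-bound sites that were lost. Of the sites near genes of the T cell receptor complex and its signaling, 41 of 59 (69.5%, interval 56.9% to 79.8%) were lost. All sites were lost at Rasgrp1 (4), Zap70 (3) and Cd28 (3), which encode a Ras activator, a receptor-proximal kinase and a costimulatory receptor, and 6 of 7 at Nfatc2. Near cytotoxic and innate lymphoid genes all 9 sites were lost (70.1% to 100%), including 3 of Zbtb16 and 2 of Gzma. Lymphoid cytokine and chemokine receptors had 24 of 38 lost (63.2%), with 6 of 10 at Cxcr4 and 6 of 9 at S1pr1, and T-lineage transcription factors 49 of 83 (59.0%). Progenitor and myeloid transcription factors had 22 of 39 lost (56.4%), RUNX family and cofactor genes 24 of 47 (51.1%), Notch receptors and targets 14 of 28 (50.0%), B-lineage genes 4 of 8 (50.0%) and AP-1 family genes 18 of 38 (47.4%). Progenitor and myeloid receptors and effectors had the lowest share, 10 of 30 (33.3%, 19.2% to 51.2%). None of 4 sites at Flt3, 4 at Csf2ra and 2 at Cd34 was lost, but all 3 at Kit were. Only for the first 2 lists did the interval leave out 50.9%. No list was tested, and the sites of a list come from few genes.

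**Figure D5:**
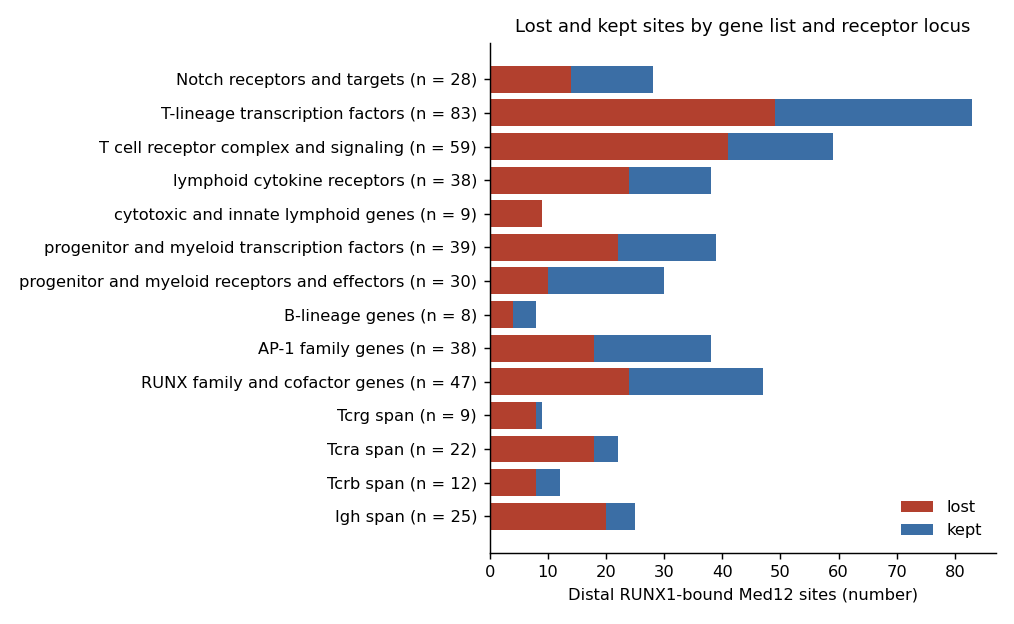
Numbers of lost (red) and kept (blue) distal RUNX1-bound Med12 sites by gene list, assigned by nearest gene, and within the RefSeq spans of 4 antigen receptor loci. The bars for the T cell receptor complex (41 of 59), cytotoxic and innate lymphoid genes (9 of 9), Tcrg (8 of 9) and Igh (20 of 25) are mostly red, and that for progenitor and myeloid receptors (10 of 30) is mostly blue.

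Lost sites were also counted by single nearest gene, beside the 50.9% of all distal RUNX1-bound sites that were lost. The ranking is by number of lost sites, so genes with many sites lead it, and no gene was tested. The 10 nearest genes with most were Gm17746 (14 of 17 sites), Mir7094-2 within Igh (11 of 12), Trerf1 (9 of 10), Gse1 and Rreb1 (9 of 11 each), Chd7 and Dad1 (9 of 13 each), Stard3nl beside Tcrg (8 of 9), Fut8 (8 of 11) and Runx1 (8 of 15). Sites were lost throughout at Aopep and Fyb (7 each), at 4930542M03Rik and Slc16a7 (6 each) and at 9 genes with 5 each, among them Jak1 and Sla. These were 13 of the 283 genes with 5 or more sites. Fyb encodes an adaptor of T cell receptor signaling. Of 5770 nearest genes, 2107 had lost sites only, 2284 kept sites only and 1379 both. Neighbours were only slightly alike. Where another distal RUNX1-bound site lay within 12.5 kb, the nearest one was lost for 55.1% of lost sites (53.0% to 57.2%) and for 50.6% of kept sites (48.3% to 52.8%). Beside Ifng, which encodes interferon gamma, a run of 4 sites at chr10:118469142-118481120 was lost (52.5, 27.3, 15.5 and 30.8), while 2 sites on the other side of the gene were kept.

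The lost sites with a Notch1-IC peak and the highest sgCont scores were nearest to Armc12 (128.0), Tbc1d1 (105.5), Stard3nl (102.3), Zfp36l2 (101.1), Arl4c (100), Mir6368 (99.6), 4933406K04Rik (97.4) and Treh (95.9). All 8 had LP Med12, with scores from 42.0 at Zfp36l2 to 327.7 at Mir6368, and Phase 1 p300 from 297.8 to 1502.3. A RUNX string was held by 2 of the 8, at Stard3nl and 4933406K04Rik. The sgMed12 RUNX1 list had a peak at each of the 8, with scores from 25.3 to 39.7, beside 14.5% of all lost sites. The 8 were chosen for high sgCont scores, and kept sites of like score were not compared.

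The highest sgCont scores belonged mostly to ribosomal RNA copies. The 6 highest lost sites, nearest to Pex2 (1029.4), Limd1 (928.2), Cdk8 (888.6), Axin2 (554.8), Filip1l (481.8) and Gphn (308.8), were annotated as large-subunit rRNA repeats except the Limd1 site, which was in a 3′ UTR and was not checked for rRNA sequence. The kept sites at Txndc11 (739.2) and Myl12b (313.2) were rRNA repeats too, and the next kept site, near Zfp395 (278.3), was in a CpG island. Only 13 lost and 3 kept sites were rRNA or satellite repeats, and the RUNX string odds ratio without them was again 2.67. The next lost sites, named after their values were seen, were nearest to 4933433H22Rik (195.2), Armc12 (128.0), Tpm3 (126.9), Cic (122.4) and Zmynd11 (120.4).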

How the data were processed

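The authors aligned the ChIP-seq reads to mm10 with Bowtie 1.1.1, at settings that allowed several matches per read, called peaks with HOMER against a control, and kept peaks reproducible between the 2 replicates of a group. The deposited lists give 1 normalized peak score per peak, with no score below 15, and combine replicates. Of 38 samples in 19 groups, 17 groups had a list. Sequencing depth was not used.

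Here peaks overlapping by 1 bp were joined, nearest genes were taken from the lists' RefSeq promoters (99.8% matched a symbol), and strings were searched on both strands in 200 bp with pysam 0.24.0, and in flanks 2 kb away. Lost and kept shares were compared by two-sided Fisher's exact tests (scipy 1.17.1), adjusted over 20 tests by Benjamini-Hochberg, with Wilson intervals, after a test on simulated data. Score-matched values are Mantel-Haenszel odds ratios over the score classes. Their p-values come from the Mantel-Haenszel chi-square test, adjusted by Benjamini-Hochberg within each setting. The members and gene lists were chosen with earlier results of these data known. Named sites were the 6 highest-scored lost and 3 kept sites, the highest-scored lost site of each Notch or T-lineage gene (12 at most), the 8 highest with Notch1-IC, and the genes with most lost sites or lost sites only. Alternatives changed the overlap, score minimum, definition of distal, window and score matching.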

Additional observations from a re-analysis of the deposited data

How the results depend on the processing

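Of 236 alternative values, 212 kept their direction and side of the threshold, among them every value for LP Med12, LP RUNX1, LP p300, Phase 1 CTCF, intron, distance and the RUNX, PU.1, GATA, TCF1, E-box and CTCF strings. With a minimum sgCont Med12 score of 30, 1667 sites were lost, and the odds ratios were 0.874 for Phase 1 Med12 without a guide, 1.51 for sgMed12 RUNX1, 0.908 for LP Notch1-IC and 0.933 for AP-1. Matched on the sgCont Med12 score they were 1.53 for Med12, 1.40 for p300, 2.25 for sgMed12 RUNX1 and 1.08 for LP Notch1-IC. Matched on Phase 1 RUNX1 score sgMed12 RUNX1 gave 0.989, and matched on Phase 1 Med12 score 1.14, with p300 at 1.44. With near misses within 500 bp left out, Med12 gave 1.36 and p300 1.33. A distance above 2500 bp gave 1.09 for sgCont RUNX1 and 1.27 for Notch1-IC of Phase 1 or 2, and a minimum RUNX1 score of 30 gave 0.842 for Med12 and 1.28 for Notch1-IC. In a window of 100 bp RBPJ gave 1.27. In alternatives chosen after seeing the data, p300 was 1.25 without rRNA or satellite repeats, and Notch1-IC 1.26 without CpG islands and 5′ UTRs. Joint matching on Med12 and RUNX1 score gave 0.811 for Med12, 0.872 for p300 and 1.31 for sgMed12 RUNX1. The cause was not tested.

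The lost count ran from 1667 to 7306, the latter with an sgCbfb score minimum of 30. No paired analysis was possible because each list combines the replicates, and leaving out a replicate could not be run for the same reason. Med12 without a guide has no value matched on its own score. Depth was not used, so a peak that is not listed may be one that fell under the score minimum. The noise of the edited-cell lists could not be measured.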
